A study of Homo sapiens with 36 samples.

Results

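The libraries described here come from EA.hy926 cells kept for 6 weeks in 10 nM PFOA, set against the vehicle controls of the same time. They were chosen by their labels as 3 libraries at 10 nM and 3 control libraries, which are 6 of the 36 libraries in the series. The study exposed this endothelial line to perfluorooctanoic acid (PFOA) at micromolar doses for 48 h and at nanomolar doses for 6 or 12 weeks, with 12 groups of 3 biological replicates. Its stated purpose was to find dose-dependent changes in messenger RNA for use in risk assessment. The 10 nM group had wild-type (WT) cells under continuous exposure to 10 nM PFOA, and the vehicle group had WT cells in 0.05% DMSO. The 1 nM and 100 nM groups of the same 6-week table, and the 10 nM and vehicle groups at 12 weeks, are used where stated. All groups were collected during subculturing, in medium with fetal bovine serum and HAT supplement. EA.hy926 was made by fusing endothelial cells with a lung carcinoma line, so it is a single hybrid line with features of both parents.

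PFOA is a long-lived perfluorinated surfactant that binds serum albumin and is found in human blood, and in rodent liver it activates the fatty acid sensor PPARα. Endothelial cells line vessels and control clotting, leukocyte adhesion and permeability, and they answer growth factors, flow and inflammatory signals within minutes by inducing immediate early transcription factors. These factors sit downstream of MAP kinase, serum response factor and CREB signalling, and they induce feedback inhibitors of the same kinases in turn.

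Values below are normalised read counts, that is the reads of a gene scaled by a factor of its library. Differences are on the log2(normalised count + 1) scale, 10 nM minus vehicle unless stated, with their standard error from limma. A gene's mean is called higher or lower on the same log2 scale. The 12 libraries at 6 weeks held between 18393069 and 19407559 reads, and 14192 to 14704 genes had a read. The first principal component of the 12 libraries held 83.8% of the variance. On it the 10 nM libraries scored 30.3, 84.3 and 63.9, against -114, -18.5 and -25.1 in vehicle controls, so these groups did not overlap. Replicate 1 at 1 nM scored 62.0, among the 10 nM libraries, while the other 1 nM libraries scored -63.8 and -116. The 100 nM libraries scored 57.5, 31.8 and 7.74. Endothelial markers were present, with 12 of 14 tested, among them CDH5, PECAM1, TEK, TIE1 and ERG. CLDN5 was at 0 in all 12 libraries, and KDR had at most 4.59, so neither was tested. Epithelial markers were present too, with 5 of 8 tested, and CDH1 was at 0. The summed endothelial markers ran from 22639 to 29094 at 10 nM, against 38219 to 76391 in controls. Of the 12 tested, 5 had a higher mean at 10 nM (CDH5, TEK, ERG, EMCN and VWF), and 7 had a lower one, among them the abundant EGFL7, ICAM2 and TIE1. VWF differed by only 0.05 ± 0.44, and its mean normalised count was lower, with 70.1 at 10 nM and 75.7 in controls. The summed epithelial markers, led by keratins, ran from 20593 to 40924 at 10 nM, against 74405 to 142811 in controls. Of the 5 tested, EPCAM alone had a higher mean, by 1.25 ± 0.48, at a low level. Its mean normalised count was 13.6 at 10 nM and 5.29 in controls. KRT7, KRT8, KRT18 and LSR had a lower mean. Summed fibroblast and mural markers, 4 of 7 tested with DCN at 0, ran from 2428 to 3082 at 10 nM, against 2666 to 3319 in controls. Among the 4, RGS5 alone had a higher mean, by 0.64 ± 0.41, while THY1 had -0.99 ± 0.40. Of 7 leukocyte markers only CD68 was tested, and their sum ran from 1400 to 2037 at 10 nM, against 1603 to 6589 in controls. The sum of all normalised counts was also lower in every library at 10 nM than in every control library. By the factor of its library, a read stood for 0.866, 0.737 and 0.766 normalised counts at 10 nM. In controls it stood for 1.62, 1.10 and 1.01. A lower marker sum is thus not by itself a lower share of reads. How far the lower marker sums follow the totals was not tested. The part of other cell types in the differences was not tested. Fewer cells of a type and less RNA per cell cannot be told apart in bulk samples.

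The comparison asked which transcripts differed after 6 weeks at 10 nM. No single gene of 12201 passed an adjusted p under 0.05 by limma when the 12 libraries of the 6-week table shared 1 estimate of the spread (0%, smallest adjusted p = 0.0953), nor by edgeR (smallest adjusted p = 0.0901, with 2402 genes higher and 2980 lower at an unadjusted p under 0.05). DESeq2 called 1350 genes higher (11.1%) and 2356 lower (19.3%). At an unadjusted p under 0.05, limma counted 2659 genes higher (21.8%) and 2706 lower (22.2%). Without control replicate 1 these counts were 579 and 633, without replicate 2 at 10 nM 745 and 913, and without replicate 3 at 10 nM 1281 and 1402. The mean was higher in 6316 genes (51.8%) and lower in 5885 (48.2%), and the 3 libraries at 10 nM lay wholly above the controls for 3731 genes (30.6%) and wholly below them for 3630 (29.8%). The count of 0 rested on replicate 1 at 1 nM, which enters only through the shared spread. Without that library, limma called 2915 genes higher (23.9%) and 3031 lower (24.8%), with the same log2 differences. Every count of list members passing in that fit below is to be read beside these shares. Likewise, each statement below that groups did not overlap is to be read beside the 30.6% and 29.8% of all genes. Limma on the 6 libraries compared called 2235 higher (18.3%) and 2507 lower (20.5%). The fit without replicate 1 at 1 nM was chosen after the data had been seen, and genes are said below to pass only with the fit named. The labels call the libraries biological replicates and speak of cells from each flask, but do not say how the flasks were started. The p-values measure the spread between these libraries, which may be technical.

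Across genes, the difference at 10 nM went with the composition of the transcript. Over 12062 genes, which are not independent replicates, it correlated with GC content (r = -0.68) and with log2 transcript length (r = 0.43). In 5 equal bins of genes from the lowest to the highest GC content, the median difference was 0.85, 0.59, 0.16, -0.52 and -1.15. From the bin with the shortest to that with the longest transcripts, the medians were -0.84, -0.28, 0.16, 0.37 and 0.62. A fit on values corrected within each library for GC content and length called 2 genes, FOSB and CSRNP1, both higher (0.0166%). Medians of gene groups after this correction are given beside the medians as measured, and what part library composition has in the differences was not tested.

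**Figure D1:**
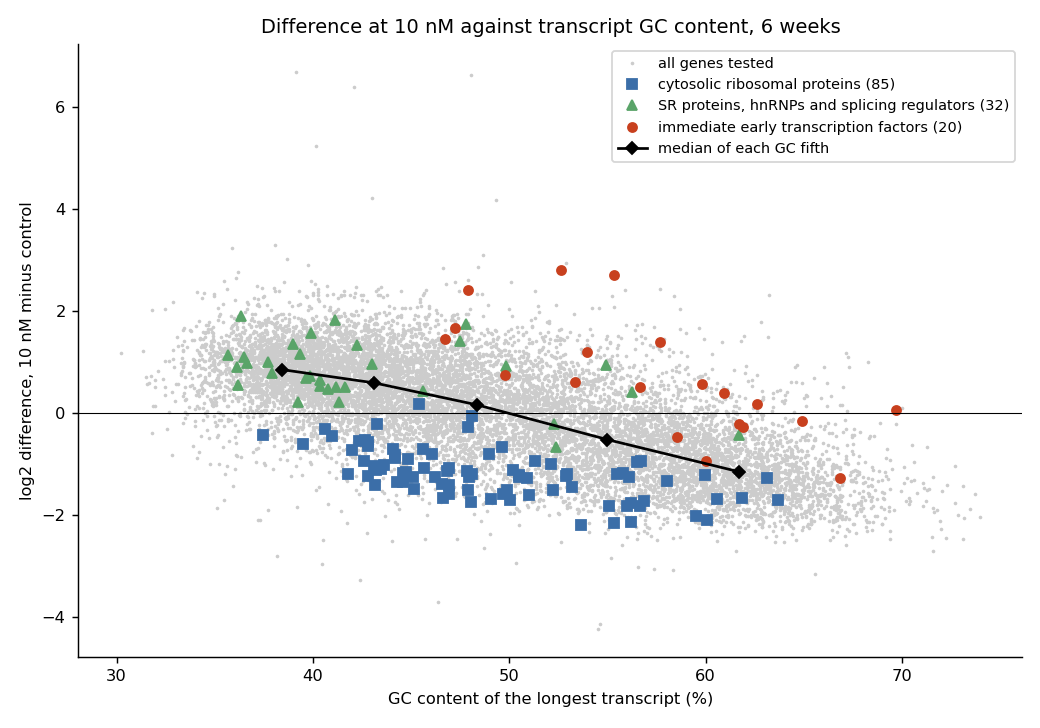
Log2 difference, 10 nM minus vehicle at 6 weeks, against the GC content (%) of each gene's longest transcript. Small points are all genes tested, coloured points are members of 3 gene lists, and black diamonds join the medians of 5 equal bins of GC content, which run from 0.85 to -1.15. Immediate early genes with a higher mean lie above the black line although many are rich in GC, while splicing regulators lie near it.

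Immediate early transcription factors were higher in mean in 14 of 20 cases, with FOS, EGR1 and NR4A2 at the top. FOS, the AP-1 subunit that pairs with JUN proteins, had 2371, 2710.1 and 3325 normalised counts at 10 nM, against 162, 391 and 984 in vehicle controls. EGR1, a zinc finger factor induced by growth factors, had 888, 1191 and 1395 at 10 nM, against 108, 150.1 and 327 in controls. FOSB, a second FOS family subunit, had 1809, 1762 and 1972 at 10 nM, against 649.8, 594 and 916 in controls. In these 3 genes every library at 10 nM lay above every control library, as held for 30.6% of all genes. The rule by which these 3 genes were named required it. The differences were 2.80 ± 0.68 for FOS, 2.70 ± 0.65 for EGR1 and 1.38 ± 0.27 for FOSB, with adjusted p = 0.0953 by limma. In the fit without replicate 1 at 1 nM all 3 passed, with an adjusted p of 0.00762, 0.00762 and 0.00762 by limma. In that fit 23.9% of all genes passed as higher.

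FOSB differed from FOS and EGR1 in how tightly its libraries grouped. Its SD was 111 around a mean of 1847 at 10 nM and 172 around 719.9 in controls. Control values of FOS spread over a wider range, with the lowest in replicate 1 and the highest in replicate 3. FOSB was also 1 of 2 genes that passed after the GC and length correction, at 1.95 with adjusted p = 0.0318 by limma, where FOS and EGR1 had 3.25 and 3.17. CSRNP1, a nuclear factor that AXIN1 induces, had 1617, 1249 and 1453 at 10 nM, against 1414, 935 and 999 in controls. Its uncorrected difference was 0.38 ± 0.30 and its corrected one 1.09, with adjusted p = 0.0318 by limma.

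Other members of the group were less uniform. NR4A2, an orphan nuclear receptor, had 70.1, 105 and 133 at 10 nM, against 9.70, 14.2 and 40.4 in controls, and ATF3, a stress-induced CREB family repressor, had 878, 976 and 1026 at 10 nM, against 221, 396 and 490.4 in controls. KLF10, a TGF-beta-induced repressor, had 949, 1506 and 1369 at 10 nM, against 242, 513 and 480.3 in controls, and MYC had 3705, 3329 and 3813 at 10 nM, against 1154, 1369.8 and 2439.7 in controls. The groups did not overlap in any of these 4 genes, and their differences were 2.41 ± 0.57, 1.45 ± 0.37, 1.68 ± 0.54 and 1.20 ± 0.48. JUN, the partner of FOS in AP-1, was higher in mean by only 0.51 ± 0.34 (unadjusted p = 0.152 by limma over the 12201 genes). FOSL1, a FOS family member that is induced late, had 4808, 3079 and 3692 at 10 nM, against 10567, 6532 and 5564 in controls, a difference of -0.94 ± 0.42 that became 0.13 after the GC correction. Of the 20 members tested, 7 were higher and 1 was lower at an unadjusted p under 0.05, and 7 and 1 passed in the fit without replicate 1 at 1 nM. Over all genes the shares were 21.8% higher and 22.2% lower at an unadjusted p under 0.05, and 23.9% and 24.8% in that fit. The median of the group was 0.54, and 1.20 after the GC correction, against 0.05 and -0.04 for all genes tested. The median GC content of the list was 58.1% and that of all genes 48.4%.

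**Figure D2:**
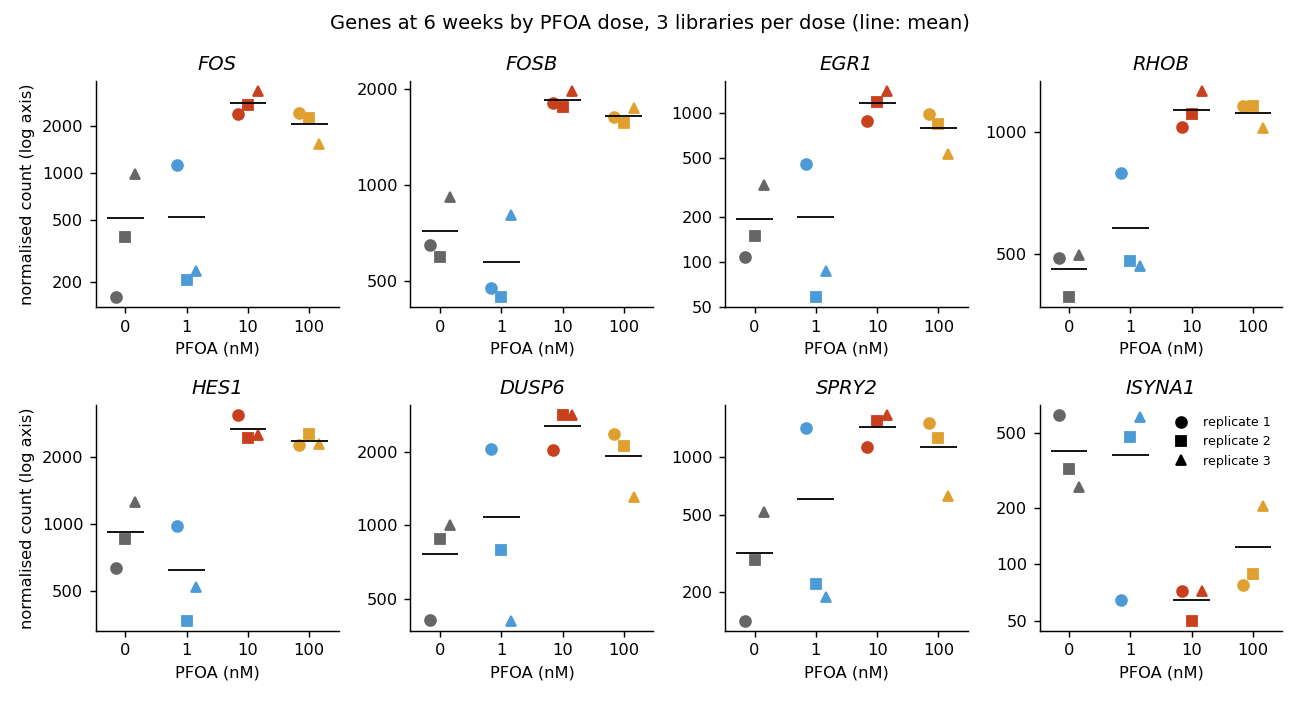
Normalised counts (log axis) of 8 genes at 6 weeks by PFOA dose (nM). Each point is a library, shaped by replicate number, and lines are means of 3. In FOS, FOSB, EGR1, RHOB, HES1, DUSP6 and SPRY2 all 3 libraries at 10 nM lie above the 3 vehicle libraries, and in ISYNA1 all lie below. At 1 nM, replicate 1 lies high in DUSP6 and SPRY2 and among the low libraries in FOSB.

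The promoters of genes that respond to MAP kinase, calcium and cyclic AMP signals hold short binding motifs, and those of 5 genes with a higher mean are shown because they hold one such motif, TGACGT. They were chosen after the search and are not a sample of their groups. Each sequence is the 250 bases before the start of the gene in RefSeq on GRCh38.p14, read 5′ to 3′ on the gene's strand. The FOS sequence is chr14:75278578-75278827 on the plus strand, FOSB chr19:45467746-45467995 plus, EGR1 chr5:138465229-138465478 plus, DUSP1 chr5:172771196-172771445 minus and HES1 chr3:194135898-194136147 plus. Capitals mark TGACGT or its reverse complement ACGTCA, which is part of the cyclic AMP response element, and in EGR1 also the serum response element (CArG box).
FOS: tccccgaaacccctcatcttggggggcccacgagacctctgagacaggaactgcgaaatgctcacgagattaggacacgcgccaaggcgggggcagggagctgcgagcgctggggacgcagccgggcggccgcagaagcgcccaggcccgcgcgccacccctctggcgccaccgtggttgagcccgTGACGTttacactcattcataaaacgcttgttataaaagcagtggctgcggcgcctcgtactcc
FOSB: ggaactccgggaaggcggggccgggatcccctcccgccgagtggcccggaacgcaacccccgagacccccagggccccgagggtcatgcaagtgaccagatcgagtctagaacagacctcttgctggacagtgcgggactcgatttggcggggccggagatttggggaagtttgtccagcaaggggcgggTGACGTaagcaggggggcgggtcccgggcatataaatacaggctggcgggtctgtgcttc
EGR1: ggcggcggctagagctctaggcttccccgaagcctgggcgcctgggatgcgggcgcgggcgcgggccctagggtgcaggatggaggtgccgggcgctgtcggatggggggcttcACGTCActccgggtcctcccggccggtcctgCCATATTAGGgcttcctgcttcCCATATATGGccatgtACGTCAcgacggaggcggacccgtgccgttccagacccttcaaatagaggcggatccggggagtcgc
DUSP1: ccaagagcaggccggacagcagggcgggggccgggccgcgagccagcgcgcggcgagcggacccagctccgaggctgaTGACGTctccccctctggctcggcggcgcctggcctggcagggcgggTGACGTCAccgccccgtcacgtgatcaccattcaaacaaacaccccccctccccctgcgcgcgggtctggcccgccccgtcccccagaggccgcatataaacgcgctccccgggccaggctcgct
HES1: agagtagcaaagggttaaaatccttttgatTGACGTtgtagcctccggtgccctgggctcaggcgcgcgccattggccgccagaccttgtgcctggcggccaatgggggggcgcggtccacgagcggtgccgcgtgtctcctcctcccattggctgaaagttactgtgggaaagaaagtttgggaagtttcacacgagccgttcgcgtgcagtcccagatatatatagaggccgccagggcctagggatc
FOS held 1 match, 64 to 59 bases before the start, and FOSB 1 match at 60 to 55 bases. EGR1 held 2 matches, at 136 to 131 and 67 to 62 bases, and 2 CArG boxes, at 105 to 96 and 83 to 74 bases. DUSP1 held 3 matches, of which those at 125 to 120 and 123 to 118 bases overlap in the palindrome TGACGTCA. HES1 held 1 match at 220 to 215 bases. Searched on both strands, TGACGT was in 6 of the 14 promoters found for the immediate early list (42.9%), in 2 of 14 for MAPK feedback inhibitors (14.3%), and in 1051 of 9970 promoters of tested genes (10.5%). The CArG box was in 2 of the 14 immediate early promoters (14.3%) and in 99 of 9970 (0.993%). Of the 15 genes chosen as higher, 4 of 13 promoters found held TGACGT, and of the 15 chosen as lower, 0 of 12. A match of letters is a description of the sequence and shows no binding.

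The feedback inhibitors of MAP kinase signalling had no member lower at an unadjusted p under 0.05. DUSP6, a phosphatase that inactivates ERK in the cytoplasm, had 2034, 2843 and 2839.6 at 10 nM, against 411, 882 and 1003 in controls. DUSP5, its nuclear counterpart, had 3117, 3039 and 3493 at 10 nM, against 643, 963 and 1455 in controls. SPRY2, a Sprouty protein that restrains receptor tyrosine kinases, had 1117, 1532 and 1639 at 10 nM, against 142, 294 and 519.7 in controls. The groups were separate in all 3, with the lowest control value in replicate 1. DUSP1, which acts on p38, JNK and ERK, had 5104, 4920.5 and 5169 at 10 nM, against 1314, 2078 and 2648 in controls. The differences were 1.83 ± 0.53 for DUSP6, 1.73 ± 0.48 for DUSP5, 2.33 ± 0.70 for SPRY2 and 1.39 ± 0.39 for DUSP1, and SPRY4 had 0.71 ± 0.29. Of 16 members tested, 13 had a higher mean. At an unadjusted p under 0.05, 10 were higher and 0 lower, beside 21.8% and 22.2% of all genes. The same count of 10 and 0 passed in the fit without replicate 1 at 1 nM, beside 23.9% and 24.8%. The median of the group was 1.01, and 0.80 after the GC correction. In SPRY2, replicate 1 at 1 nM stood at 1402 while the other 1 nM libraries stood at 221 and 188.

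HES1 and Notch genes came next. HES1, a helix-loop-helix repressor and direct Notch target that growth factors also induce, had 3097, 2435 and 2528 at 10 nM, against 632, 856 and 1257 in controls, a difference of 1.60 ± 0.36. HEY1, another Notch target of endothelial cells, had 90.9, 92.9 and 98.0 at 10 nM, against 8.08, 51.5 and 30.3 in controls. The ligands DLL1 and JAG1 and the receptor NOTCH2 had differences of 1.20 ± 0.37, 1.12 ± 0.40 and 1.13 ± 0.40. None of their libraries at 10 nM overlapped the controls, as for the 30.6% of all genes that lay wholly above them. HES4, a related repressor with a very GC-rich transcript, had 297, 169.5 and 191 at 10 nM, against 1610.0, 759 and 568 in controls. Its difference of -2.05 ± 0.71 became 0.20 after the GC correction, while HES1 had 1.98 and HEY1 1.99. Of 16 Notch genes tested, 10 had a higher mean, and 7 were higher and 1 lower at an unadjusted p under 0.05. In the fit without replicate 1 at 1 nM 7 and 1 passed. Over all genes the shares were 21.8% and 22.2%, and 23.9% and 24.8% in that fit. The median of the Notch genes was 0.73, and 0.89 after the correction.

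Among the genes of TGF-beta and BMP signalling, SMAD7, SMAD1, TGFBR2 and ID2 were higher in mean and TGFB1 and ENG lower. ID2, which blocks helix-loop-helix factors, had 108, 119 and 126 at 10 nM, against 19.4, 27.4 and 49.5 in controls. Its difference was 1.95 ± 0.43, and its groups did not overlap, as the naming rule required. SMAD7, the inhibitory SMAD, had 166, 200.5 and 219.7 at 10 nM, against 16.2, 72.3 and 84.9 in controls, and SMAD1, which carries BMP signals, had 2.11 ± 0.73 as its difference. The receptor TGFBR2 had 2687, 3956 and 3609 at 10 nM, against 811, 1786 and 1767 in controls. The ligand TGFB1 had 5348, 3914 and 4585 at 10 nM, against 22827, 8409 and 9499 in controls, and endoglin (ENG), an endothelial coreceptor, had 10362, 7531 and 8176 at 10 nM, against 42877, 18042 and 17307 in controls. After the GC correction ID2 and SMAD7 stood at 2.46 and 2.60, TGFB1 at -0.31 and ENG at -0.42. Of 26 members tested, 17 had a higher mean. In the fit without replicate 1 at 1 nM 12 passed as higher and 4 as lower, beside 23.9% and 24.8% of all genes. The median of the group was 0.62, and 0.06 after the correction.

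RHOB, an endosomal small GTPase induced by growth factors and stress, had the lowest p of all genes that met the naming rule. It had 1030.4, 1108 and 1259 at 10 nM, against 491, 393 and 498 in controls, a difference of 1.30 ± 0.25 with adjusted p = 0.0953 by limma. Its 3 control libraries spanned a narrow range, and every library at 10 nM lay above them, as the naming rule required. After the GC correction RHOB stood at 2.03. RHOB lies on chr2:20447074-20449440, FOSB on chr19:45467996-45475179 and HES1 on chr3:194136148-194138732, all as protein-coding genes of GRCh38.p14.

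The other genes with the lowest p among those higher at 10 nM had varied roles. MYRIP, which links secretory organelles to myosin, had 52.0, 128 and 126 at 10 nM, against 17.8, 16.4 and 31.3 in controls, a difference of 2.12 ± 0.52. RP2, a GTPase-activating protein for ARL3, had 107, 216 and 145 at 10 nM, against 9.70, 23.0 and 40.4 in controls, a difference of 2.77 ± 0.68. The 10 nM libraries lay above the controls in each of these genes, as the naming rule required and as in 30.6% of all genes. DCAF12, a substrate receptor of a CUL4 ubiquitin ligase, had a difference of 1.28 ± 0.31, the cytokine receptor-like CRLF3 1.76 ± 0.45 and the transcription factor SP4 1.71 ± 0.43. EPC1, a subunit of the NuA4 histone acetyltransferase, had 1.25 ± 0.31, and 0.01 after the GC correction. All 15 genes chosen by the rule as higher passed in the fit without replicate 1 at 1 nM, as did 23.9% of all genes. They were chosen by low p on the same libraries, so their passing is no separate support.

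The 15 genes with the lowest p among those lower at 10 nM also had varied roles, and several stood close to 0 after the GC correction. ISYNA1, which makes inositol phosphate from glucose 6-phosphate, had 71.9, 50.1 and 72.0 at 10 nM, against 627, 321 and 258 in controls, a difference of -2.53 ± 0.72. NDUFA4L2, a mitochondrial protein induced by hypoxia, had 20.8, 9.58 and 10.7 at 10 nM, against 134, 78.9 and 43.5 in controls, a difference of -2.49 ± 0.71. SAP25, a subunit of the SIN3 corepressor complex, had 43.3, 25.8 and 32.2 at 10 nM, against 257, 106 and 132 in controls, a difference of -2.18 ± 0.54. In each of the 3, control replicate 1 was the highest library. CERS5, a ceramide synthase, stood at a higher level, with 871, 630.2 and 748 at 10 nM, against 1957, 1543 and 1298 in controls, and its difference of -1.08 ± 0.30 was -1.08 after the GC correction. PIF1, a DNA helicase, had a difference of -1.09 ± 0.29, and -0.11 after the correction. LSR, a protein of tricellular junctions, had -1.83 ± 0.50, ITGAE, an integrin that binds E-cadherin, -1.27 ± 0.35, and LRRC32, which holds latent TGF-beta at the cell surface, -1.23 ± 0.35. MRM1, a mitochondrial ribosomal RNA methyltransferase, had -1.33 ± 0.38 and the membrane progestin receptor PAQR6 -1.35 ± 0.38. The differences of DNASE1L2, CLDND2, TMEM91, YJEFN3 and LRRC71 lay between -2.33 ± 0.64 and -2.02 ± 0.56. After the correction SAP25, MRM1 and PAQR6 stood at -0.28, -0.10 and -0.29, and ISYNA1 and TMEM91 at -1.33 and -1.72.

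Transcription factors that define endothelial identity had a higher mean in 19 of 21 cases. ERG, an ETS factor that maintains endothelial fate, had 957, 1296 and 1136 at 10 nM, against 438, 478 and 737 in controls. FLI1, its close relative, had 629, 1095 and 836 at 10 nM, against 329.8, 567 and 463 in controls, and ETS1 had 994, 1959 and 1629 at 10 nM, against 139, 445 and 419 in controls. The groups did not overlap in these 3 genes, as for the 30.6% of all genes that lay wholly above the controls. The differences were 1.06 ± 0.34, 0.91 ± 0.33 and 2.31 ± 0.80. LYL1, a helix-loop-helix factor shared with blood cells, was lower in mean, with 335, 198 and 237 at 10 nM, against 1636, 816 and 698 in controls, a difference of -1.96 ± 0.61. In the fit without replicate 1 at 1 nM 15 of the 21 passed as higher and 2 as lower, and the list's median was 0.87, or 0.71 after the GC correction. Surface and junction genes did not share this direction. CDH5, the cadherin of endothelial junctions, had 2739, 2855 and 3003 at 10 nM, against 1274, 1315 and 2303 in controls, a difference of 0.87 ± 0.37. PECAM1 had -0.22 ± 0.23, which became 0.14 with quantile normalisation. EGFL7, a secreted vessel protein, had 4613, 2005 and 2971 at 10 nM, against 24319, 9345 and 9727 in controls, a difference of -2.11 ± 0.70, and ESAM, a junction adhesion molecule, had -0.86 ± 0.39. Of 20 junction and surface genes, 9 had a higher mean, and 3 passed as higher and 4 as lower in that fit. Over all genes 23.9% passed as higher and 24.8% as lower in that fit. DESeq2 called 5 of the 21 transcription factors as higher and 2 as lower, beside 11.1% and 19.3% of all genes. Of the 20 junction and surface genes it called 1 as higher and 3 as lower. The median of the junction and surface genes was -0.14, or -0.13 after the GC correction and 0.03 with quantile normalisation.

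Genes that respond to flow held 3 Krüppel-like factors. KLF6 had 676, 1437 and 1117 at 10 nM, against 133, 290.4 and 353 in controls, and KLF4, which flow induces together with KLF2, had 171, 168 and 203 at 10 nM, against 43.6, 124 and 73.8 in controls. KLF2 had 4207, 3146 and 3835 at 10 nM, against 3115, 2148 and 3756 in controls, and these overlapped. The differences were 2.10 ± 0.57 for KLF6, 1.28 ± 0.39 for KLF4 and 0.34 ± 0.32 for KLF2. Endothelin-1 (EDN1), a vasoconstrictor peptide, had 543, 440.0 and 501 at 10 nM, against 92.1, 171 and 331 in controls, and thrombomodulin (THBD), which turns thrombin towards anticoagulant action, had 6182, 8817 and 8087 at 10 nM, against 2473, 4245 and 3977 in controls. Neither pair of groups overlapped, and 30.6% of all genes likewise lay wholly above the controls. Of 9 members, 7 had a higher mean, and the median was 1.13, or 1.46 after the GC correction. In the fit without replicate 1 at 1 nM 6 passed as higher and 0 as lower, beside 23.9% and 24.8% of all genes.

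Ligands and receptors of vessel growth were divided. The receptor TEK, which binds angiopoietins, had 328, 609 and 534 at 10 nM, against 82.4, 126 and 215 in controls, and the coreceptor NRP1 had a difference of 1.12 ± 0.36. VEGFA, the main angiogenic ligand, had 1043, 1532 and 1256 at 10 nM, against 831, 751 and 777 in controls, a difference of 0.68 ± 0.25 without overlap. The related ligands VEGFB and PGF were lower in mean, with 559, 327 and 372 at 10 nM, against 1843, 1227 and 964 in controls, for VEGFB. Their differences of -1.67 ± 0.55 and -1.31 ± 0.52 became -0.04 and -0.91 after the GC correction. Of 11 members, 8 had a higher mean, and 4 passed as higher and 2 as lower in the fit without replicate 1 at 1 nM, with a median of 0.52, or 0.54 after the correction. In clotting, tissue factor (F3), which starts coagulation, had 19.0, 14.7 and 26.8 at 10 nM, against 4.85, 3.29 and 8.09 in controls, a low level with a difference of 1.76 ± 0.62. The protease receptor F2RL1 had 698, 1031 and 1006 at 10 nM, against 109.9, 204 and 436 in controls. PLAT, the tissue plasminogen activator, had a difference of 0.53 ± 0.29. Of 17 genes of adhesion and coagulation, 4 passed as higher and 1 as lower in that fit, beside 23.9% and 24.8% of all genes, and their median was 0.33, or 0.27 after the correction.

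Targets of YAP and serum response factor, which answer cell shape and tension, had a higher mean in 19 of 28 cases. THBS1, a matrix glycoprotein that inhibits vessel growth, had 2419, 4901 and 4581 at 10 nM, against 406, 867 and 1134 in controls, a difference of 2.36 ± 0.68. The matricellular CCN1 had 13911, 11490 and 13037 at 10 nM, against 3435, 6399 and 7453 in controls, and CCN2 had 8101, 7640.2 and 8683 at 10 nM, against 3721, 5624 and 5564 in controls. None of these groups overlapped, and 30.6% of all genes likewise lay wholly above the controls. YAP1 itself had a difference of 1.49 ± 0.51, while ZYX, a focal adhesion protein, had -1.34 ± 0.57 and -0.09 after the GC correction. In the fit without replicate 1 at 1 nM 13 passed as higher and 5 as lower, beside 23.9% and 24.8% of all genes. The median of the list was 0.64, or 0.77 after the correction. Matrix genes had a median of 0.23, or 0.33 after it, with 12 of 38 passing as higher, FN1 among them at 1.47 ± 0.54, and 3 as lower. The integrin ITGB1 had 1.45 ± 0.48, and vimentin (VIM) 0.35 ± 0.30. Among 14 epithelial genes the median was -1.11, but -0.06 after the GC correction, and KRT7, an abundant keratin of simple epithelia, had 13798, 7068 and 10388 at 10 nM, against 52513, 20271 and 25962 in controls.

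Inflammatory genes were on each side, with more cytokines higher in mean than lower. IL6, an acute phase cytokine, had 126, 121 and 158 at 10 nM, against 16.2, 43.8 and 57.6 in controls, a difference of 1.92 ± 0.51. CXCL8, which attracts neutrophils, had 523, 1161 and 753 at 10 nM, against 134, 363 and 287 in controls, a difference of 1.67 ± 0.46. IL1A had 531, 824 and 733 at 10 nM, against 213, 351 and 412 in controls, and IL1B a difference of 0.77 ± 0.30. These libraries did not overlap, and 30.6% of all genes likewise lay wholly above the controls. IL18, a cytokine of the same family as IL1B, had 569.7, 400.2 and 448 at 10 nM, against 2149.8, 1645 and 1329 in controls, a difference of -1.84 ± 0.57 that stood at -2.25 after the GC correction, and CSF3, which drives granulocyte production, had 473, 329 and 365 at 10 nM, against 1201, 592 and 635 in controls, with a corrected difference of 0.07. Of 19 cytokines and chemokines 15 had a higher mean, and the median was 0.65, or 0.78 after the correction. In the fit without replicate 1 at 1 nM 9 passed as higher and 2 as lower, beside 23.9% and 24.8% of all genes. In the NF-kB system the inhibitors NFKBIZ and TNFAIP3 and the precursor NFKB1 had differences of 1.71 ± 0.47, 1.23 ± 0.47 and 1.64 ± 0.61. NFKB2, a subunit of the non-canonical arm, had 589.7, 389.9 and 498 at 10 nM, against 2966, 1008 and 1334 in controls, and its partner RELB had 153, 84.0 and 129 at 10 nM, against 569, 225 and 392 in controls. Their differences of -1.71 ± 0.64 and -1.63 ± 0.55 stood at -0.77 and -0.31 after the correction. Of 20 members 6 passed as higher and 11 as lower in that fit, and the median was -0.73, or -0.09 after the correction.

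Interferon-stimulated genes, which defend against viruses, were lower in mean in 16 of 26 cases. ISG15, a ubiquitin-like modifier, had 920.4, 428 and 461 at 10 nM, against 5362, 2349 and 1808 in controls, a difference of -2.32 ± 0.77. IRF7, which amplifies interferon production, had 371, 199 and 219.7 at 10 nM, against 1998, 701 and 652 in controls. IFIT2, which binds viral RNA, went the other way in mean, by 1.17 ± 0.49. After the GC correction ISG15 and IRF7 stood at -0.70 and -0.47. In the fit without replicate 1 at 1 nM 2 passed as higher and 11 as lower, beside 23.9% and 24.8% of all genes. The median of the list was -0.26, or -0.23 after the correction.

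Genes of PPAR and fatty acid oxidation, the pathway best known for PFOA in rodent liver, had a median of -0.09, or -0.02 after the GC correction, against 0.05 and -0.04 for all genes. CPT1A, which commits fatty acids to mitochondrial oxidation, had 804, 934 and 967 at 10 nM, against 459, 588 and 669 in controls, a difference of 0.67 ± 0.27, and ACADM, a dehydrogenase of the same pathway, had 1.73 ± 0.61. ANGPTL4, a secreted lipase inhibitor and PPAR target, had 1256, 700.2 and 1084 at 10 nM, against 5219, 1838 and 2521 in controls, a difference of -1.55 ± 0.66, and UCP2, a mitochondrial carrier, had -1.61 ± 0.57. After the GC correction ANGPTL4 stood at -0.30 and CPT1A at 0.61. Of 24 members tested 5 passed as higher and 6 as lower in the fit without replicate 1 at 1 nM, shares of the list close to those over all genes. The list held 35 genes, and 11 had a mean under 10 and were not tested.

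Genes of cholesterol synthesis and uptake were on each side. HMGCS1, an early enzyme of the mevalonate pathway, had 439.9, 931 and 800.0 at 10 nM, against 121, 219 and 323 in controls, a difference of 1.75 ± 0.54 without overlap. SQLE, which oxidises squalene, and INSIG1, which holds back sterol-responsive transcription, had 1.92 ± 0.67 and 1.01 ± 0.34. MVD, further along the pathway, had 696, 417 and 564 at 10 nM, against 4078, 1128 and 1439 in controls, a difference of -1.78 ± 0.70. EBP, an isomerase of the sterol ring, had 519, 308 and 371 at 10 nM, against 1768, 1010.4 and 878 in controls, a difference of -1.57 ± 0.56. After the GC correction HMGCS1 stood at 1.10, MVD at -0.59 and EBP at -0.99. Of 29 members 10 passed as higher and 8 as lower in the fit without replicate 1 at 1 nM, beside 23.9% and 24.8% of all genes. The median of the list was 0.36, or 0.25 after the correction.

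Stress pathways were examined next. GCLC, which makes glutathione, had 500.5, 766 and 712 at 10 nM, against 139, 281 and 285 in controls, a difference of 1.53 ± 0.50, and TXNRD1 had 1.06 ± 0.43. GPX4, which reduces lipid peroxides, had 7174, 4068 and 5205 at 10 nM, against 34871, 16285 and 14408 in controls, a difference of -1.92 ± 0.66, and -0.53 after the GC correction. Of 25 NRF2 targets 7 passed as higher and 8 as lower in the fit without replicate 1 at 1 nM, beside 23.9% and 24.8% of all genes, and the median of -0.37 became -0.06 after the GC correction and 0.23 with quantile normalisation. In the ATF4 response to amino acid shortage, CTH, which makes cysteine, had 50.2, 56.0 and 62.0 at 10 nM, against 4.85, 5.48 and 29.3 in controls, a difference of 2.44 ± 0.69. CHAC1, which breaks down glutathione, had 151, 67.8 and 86.5 at 10 nM, against 635, 640.0 and 175 in controls, a difference of -2.10 ± 0.63, and PHGDH, the first enzyme of serine synthesis, had -1.36 ± 0.54. Of 28 members 7 passed as higher and 7 as lower in that fit, and the median of -0.16 became 0.16 after the GC correction and 0.15 with quantile normalisation. SLC7A11, the cystine carrier that NRF2 and ATF4 share, had 1.36 ± 0.48, and -0.04 after the GC correction.

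Of the aryl hydrocarbon receptor axis, TIPARP, its feedback repressor, had 510.0, 768 and 626 at 10 nM, against 112, 251 and 269 in controls, a difference of 1.67 ± 0.56. CYP1A1, the classic target enzyme, had 25.1, 28.0 and 33.7 at 10 nM, against 19.4, 18.6 and 33.4 in controls, which overlapped, with a difference of 0.31 ± 0.65. Among 13 genes listed as candidates for binding or carrying perfluorinated acids, 5 were tested. The efflux pump ABCC4 had 234, 424 and 351 at 10 nM, against 79.2, 145 and 128 in controls, a difference of 1.51 ± 0.46. ABCG2, another efflux pump, had 61.5, 120.1 and 100.3 at 10 nM, against 22.6, 58.1 and 51.6 in controls, a difference of 1.13 ± 0.46. Both passed as higher in the fit without replicate 1 at 1 nM. The p53 target CDKN1A, an inhibitor of the cell cycle, had -0.73 ± 0.47, which became 0.07 after the correction, and RRM2B, a subunit of ribonucleotide reductase, had 1.68 ± 0.65. Of 25 p53 targets 6 passed as higher and 8 as lower in that fit, beside 23.9% and 24.8% of all genes, with a median of 0.30, or 0.18 after the correction, and BAX, which promotes cell death, had -1.21 ± 0.45.

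Genes of protein synthesis and respiration were lower in mean at 10 nM. Ribosomal protein genes took 13.6%, 9.49% and 11.01% of reads at 10 nM, against 19.6%, 18.2% and 17.4% in vehicle controls. The mean share was 11.4% ± 2.07 at 10 nM and 18.4% ± 1.13 in controls (SD, n = 3 each), a difference of -7.06 percentage points with exact permutation p = 0.1, two-sided. The 10 splits of 3 against 3 libraries allow no lower p. Of 85 cytosolic ribosomal protein genes tested 1 had a higher mean, and 72 passed as lower in the fit without replicate 1 at 1 nM. Their median was -1.21, or -0.99 after the GC correction and -0.28 with quantile normalisation. Single genes of this group are not named because near-identical pseudogenes can take their reads.

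Mitochondrially encoded transcripts took 7.82%, 5.99% and 6.08% of reads at 10 nM, against 9.93%, 11.4% and 9.24% in controls. The mean share was 6.63% ± 1.03 at 10 nM and 10.2% ± 1.12 in controls (SD, n = 3 each), a difference of -3.57 percentage points with exact permutation p = 0.1, two-sided. MT-ND4, a subunit of complex I, had 208441, 114868 and 120620 at 10 nM, against 637791, 526490 and 357120 in controls, a difference of -1.79 ± 0.64. MT-ND4L, whose end overlaps MT-ND4 by a few bases, had 9318, 9387 and 8804 at 10 nM, against 8787, 9697 and 7497 in controls, and these overlapped, with a difference of 0.09 ± 0.23. Of 13 such genes 9 passed as lower in the fit without replicate 1 at 1 nM, and their median was -1.36, or -1.03 after the GC correction and -0.28 with quantile normalisation. Nuclear-encoded subunits of the respiratory chain had a median of -0.95, or -0.60 after the correction, with 46 of 77 passing as lower and 0 as higher, and mitochondrial ribosomal proteins -0.77, or -0.43 after it, with 43 of 78 as lower and 3 as higher. The median of proteasome subunits was -0.44, with 1 of 33 as higher and 11 as lower, and it was -0.54 after the correction and 0.15 with quantile normalisation.

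Regulators of chromatin and RNA made up the opposite side. EP300, a histone acetyltransferase and coactivator of CREB, had 283, 546 and 452 at 10 nM, against 77.6, 137 and 155 in controls, a difference of 1.79 ± 0.57, and 1.57 after the GC correction. TOB1, which recruits the deadenylase to messenger RNA, had 278, 470.2 and 403 at 10 nM, against 32.3, 92.0 and 128 in controls, a difference of 2.35 ± 0.74, and ZFP36, which binds AU-rich elements, had 1.04 ± 0.36. Of 33 chromatin factors 23 passed as higher and 0 as lower in the fit without replicate 1 at 1 nM, of 32 splicing regulators 18 and 1, and of 17 genes of messenger RNA decay 11 and 0. Their medians of 0.85, 0.84 and 0.86 became 0.20, 0.09 and 0.10 after the GC correction. Their median transcript GC content was 47.5%, 40.6% and 46.1%. Carriers of amino acids had a median of 0.84, or 0.19 after it, with 10 of 20 passing as higher and 1 as lower. In the cell cycle, 46 replication genes had a median of 0.08, the same after the correction. The median of 45 mitotic genes was 0.48, or 0.30 after the correction, with 16 passing as higher and 7 as lower. Over all genes 23.9% passed as higher and 24.8% as lower in the fit without replicate 1 at 1 nM. DESeq2 called 13 of the 33 chromatin factors, 4 of the 32 splicing regulators and 5 of the 17 decay genes as higher. It called 0, 1 and 0 of them as lower. Over all genes DESeq2 called 11.1% as higher and 19.3% as lower.

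**Figure D3:**
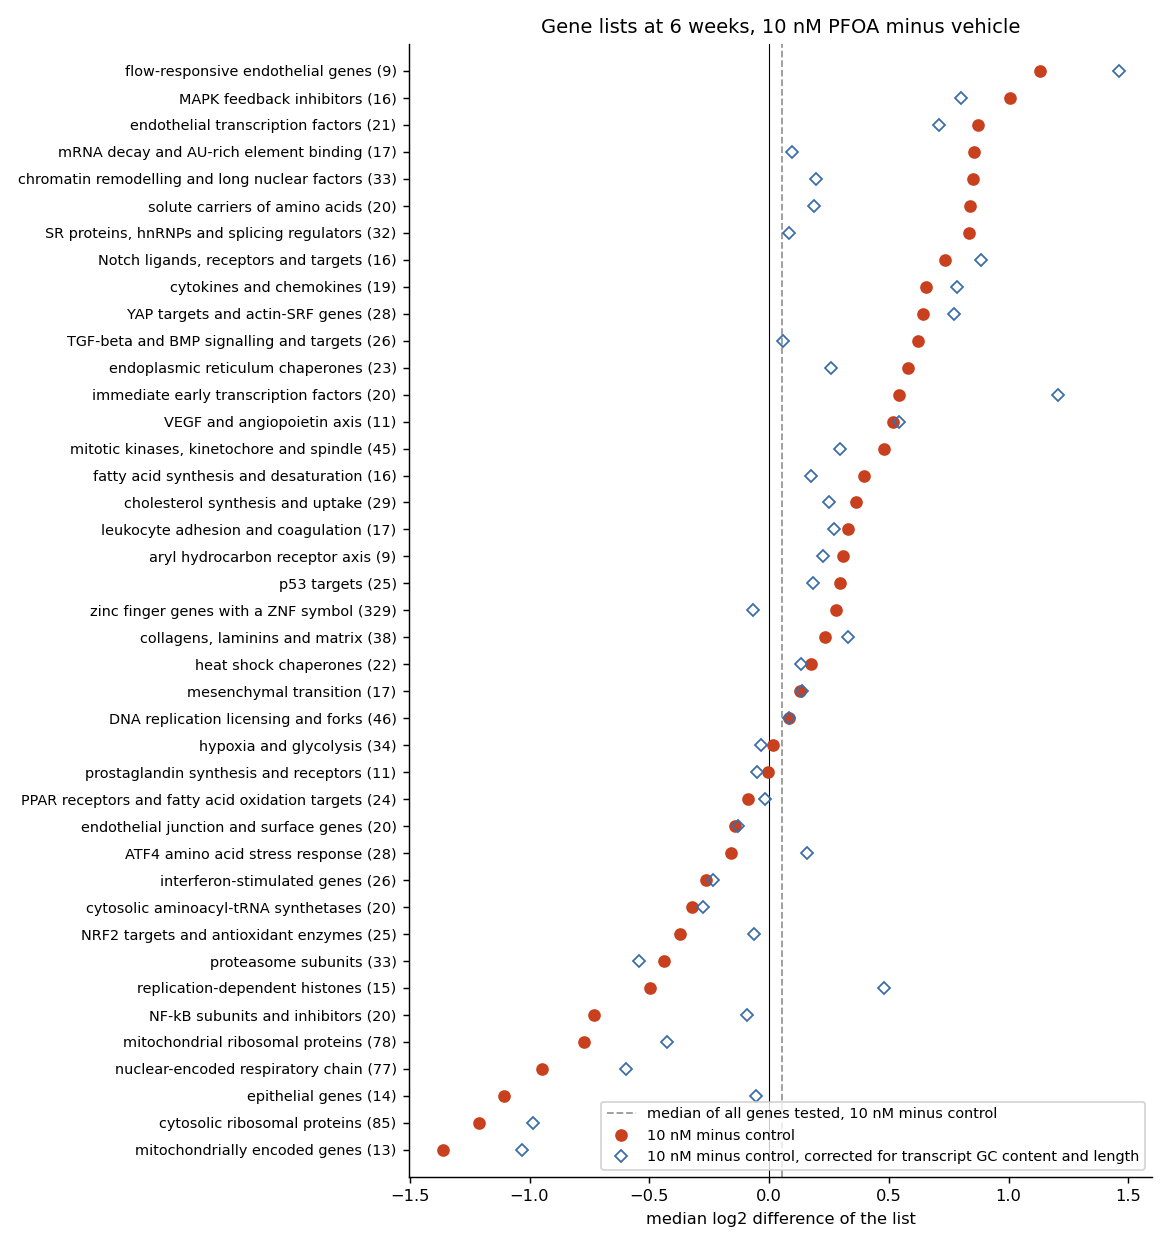
Median log2 difference, 10 nM minus vehicle at 6 weeks, of each gene list with at least 8 genes tested (number in parentheses). Filled circles are the median as measured, open diamonds the median after correction for transcript GC content and length, and the dashed line is the median of all genes tested, 0.05. Immediate early, flow-responsive and Notch genes lie above 0 on both scales, chromatin, splicing and decay genes fall towards 0 on the corrected scale, and ribosomal and respiratory genes lie below 0 on both.

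The comparison with 1 nM shares its libraries at 10 nM with the comparison above, so its values are not independent of it. No gene passed by limma (0%, smallest adjusted p = 0.155) or edgeR, and DESeq2 called 35 higher and 1577 lower. Limma counted 1872 genes higher (15.3%) and 2059 lower (16.9%) at an unadjusted p under 0.05. FOSB had 1809, 1762 and 1972 at 10 nM, against 477, 447 and 804 at 1 nM, a difference of 1.73 ± 0.27. HES1 had 3097, 2435 and 2528 at 10 nM, against 978, 367 and 517 at 1 nM, a difference of 2.23 ± 0.36. In FOSB replicate 1 at 1 nM lay between the other 1 nM libraries. In HES1 it was the highest library at 1 nM but did not lie with the libraries at 10 nM, unlike in SPRY2 or DUSP6. EGR1, NR4A2 and ATF3 had differences of 3.09 ± 0.65, 2.63 ± 0.57 and 1.62 ± 0.37. In each, replicate 1 at 1 nM was above the other 1 nM libraries but below every library at 10 nM. On the lower side PPP1R3E, a subunit that targets a phosphatase to glycogen, had 146, 125 and 123 at 10 nM, against 208, 249 and 232 at 1 nM, and CHKB, a choline kinase, had -1.65 ± 0.52. After the GC and length correction FOSB and CSRNP1 passed at 10 nM against 1 nM, with adjusted p = 0.0145 and 0.015 by limma. Without replicate 1 at 1 nM, 7584 genes passed.

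Against 100 nM few genes had a low p, which does not show that the 2 doses were alike. No gene passed by limma (0%, smallest adjusted p = 0.999), edgeR or DESeq2. Limma counted 5 genes higher (0.041%) and 9 lower (0.0738%) at an unadjusted p under 0.05. Both shares lie under 0.05, the share that this threshold would pass on average without any difference. With limma on the libraries of these doses alone the counts were 65 and 61. Why the shares were so low was not tested. UMAD1 had 90.9, 97.3 and 108 at 10 nM, against 55.3, 52.4 and 47.3 at 100 nM, a difference of 0.92 ± 0.38 without overlap. FTO, an RNA demethylase, had 0.39 ± 0.26, and VAV3, an exchange factor for small GTPases, -0.47 ± 0.31. Both doses were set against the same vehicle libraries, so their differences from control are given side by side only. For FOS these were 2.80 ± 0.68 at 10 nM and 2.35 ± 0.68 at 100 nM, for FOSB 1.38 ± 0.27 and 1.22 ± 0.27, for HES1 1.60 ± 0.36 and 1.42 ± 0.36, and for RHOB 1.30 ± 0.25 and 1.28 ± 0.25.

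At 12 weeks both sides are other libraries, although the labels do not say whether the flasks were those sampled at 6 weeks. FOSB had 4886, 3931 and 3822 at 10 nM, against 1345, 2078 and 2115 in vehicle controls, a difference of 1.21 ± 0.37 without overlap. FOS had a difference of 1.69 ± 0.78 at 12 weeks, EGR1 1.18 ± 0.72 and HES1 0.92 ± 0.51, and none passed by limma. The mean at 12 weeks was higher in 6157 of 12037 genes (51.2%), and 0 genes passed there (0%), with 83 higher (0.69%) and 67 lower (0.557%) at an unadjusted p under 0.05. The ribosomal share was 15.9% ± 5.63 at 10 nM and 19.8% ± 2.73 in controls at 12 weeks (SD, n = 3 each, exact permutation p = 0.4). The difference of the effects, 6 minus 12 weeks, passed in 0 of 12037 genes by limma (0%, smallest adjusted p = 0.906) and by edgeR, and in 1 by DESeq2, with 20 genes above (0.166%) and 22 below (0.183%) at an unadjusted p under 0.05. Without vehicle replicate 2 at 12 weeks these counts were 198 and 110, and without vehicle replicate 1 at 6 weeks 6 and 7. RHOB had 1425, 2593 and 2053 at 10 nM, against 1519.9, 1432 and 1641 in controls at 12 weeks, and its effect at 6 weeks was higher by 0.94 ± 0.34 (adjusted p = 0.906 by limma). BHLHE41, a repressor of the circadian clock, had an effect of 0.36 ± 0.23 at 6 weeks and -0.54 ± 0.28 at 12 weeks. The interferon-stimulated genes IFI27, IFI6 and OAS2 had -1.92 ± 0.69, -1.13 ± 0.42 and -0.23 ± 0.32 at 6 weeks, and 0.31 ± 0.50, 0.34 ± 0.45 and 0.61 ± 0.26 at 12 weeks. Their differences between the times were -2.23 ± 0.90, -1.48 ± 0.64 and -0.84 ± 0.37, and none passed.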

How the data were processed

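Messenger RNA was measured in EA.hy926 cells by paired-end sequencing of TRIzol-extracted RNA, per the labels' protocols. The submitters' processing notes name HISAT, Bowtie2, DESeq2 and the build GRCh38.p14. The tool that counted reads and whether it used strand: not given in the sources used here. The deposited values are a signal that the authors made by dividing each gene's reads by a size factor per library. In the tables used, 100% of values were whole multiples of 1 step per library within 0.01 reads, so whole reads were recovered. 1 entry without a gene name was left out, and the 48 h table was not used. No column of per-sample values was left unmapped.

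Genes with a mean of at least 10 over the 12 columns of the 6-week table were tested (12201). Limma 3.58.1 (R 4.3.3), whose prior was allowed to depend on intensity, was fitted to log2(value + 1) over those 12 libraries, with Benjamini-Hochberg adjustment at 0.05. Tables of 6 and 12 weeks were normalised separately by the authors, so only the difference of effects was tested across them, over 12037 genes. Library shares were compared by exact permutation tests (scipy 1.17.1). Alternatives were pseudocounts of 0.1 and 10, other filters, quantile and TMM scaling, correction for transcript GC content and length (GENCODE 29 longest transcripts), the first principal component as a covariate, library weights, fewer libraries, and count models of the whole reads by edgeR 4.0.16 or by DESeq2 1.42.0. The count tests called 0 genes by edgeR and 3706 by DESeq2. The limma, edgeR and DESeq2 steps were tested on simulated data. Those libraries were drawn independently with a fixed spread and held no component shared across genes. The simulation thus checks the steps and not which of the tools is right for these libraries. Libraries of the same replicate number deviated together at 10 nM and in vehicle (r = 0.665, 0.550 and 0.343 across genes for replicates 1, 2 and 3). Replicate 2 at 10 nM also deviated with vehicle replicate 3 (r = 0.407). At 12 weeks the same-numbered r were -0.355, -0.700 and 0.862, and each such r of 10 nM with 1 nM or 100 nM at 6 weeks was negative. From the data alone a pairing by number is thus not settled. Fits with and without a block for the number are given, and the fit without the block is the main one. Depth ran from 18393069 to 19407559 reads a library at 6 weeks.

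No gene passed, so the text names the 15 genes in each direction with the lowest unadjusted p, a mean of at least 50 and no overlap between groups, and members of gene lists with their values. CSRNP1 met neither condition, as its groups overlapped, and it is named because it passed after the GC and length correction. Genes sharing over 10% of exonic bases or having near copies were left out of that choice, and some genes are not reported here. The comparison, the lists and the rules were chosen with earlier results of these data known. Positions, promoters and annotations are from RefSeq on GRCh38.p14.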

Additional observations from a re-analysis of the deposited data

How the results depend on the processing

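For 10 nM against vehicle, the number of genes passing was 0 by limma on 12 libraries. It stayed 0 under other pseudocounts, filters, quantile and TMM scaling, adjustment for the first principal component, edgeR, and when any of the 6 compared libraries was left out (0 to 0). It was 2 after correction for GC content and length, 8471 with library weights, 4742 on the 6 libraries compared, 3706 by DESeq2, 5946 without 1 nM replicate 1 and 6279 without the 1 nM libraries. The last 2 settings were chosen after seeing the data, and they only change the shared spread. Against 1 nM the count of 0 became 1 with quantile normalisation, 2 after the GC correction, 9451 with weights and 1612 by DESeq2, and ranged from 0 to 7584 when a library was left out. Against 100 nM it became 3622 with weights. The weights ran from 0.0866 to 13.1. For 6 minus 12 weeks DESeq2 called 1 gene, TVP23C-CDRT4, a readthrough transcript at 0 in the controls of 6 weeks. With the replicate block 0 genes passed in each comparison, the smallest adjusted p against vehicle being 0.146 by limma, and no named gene's call changed. Same-numbered libraries at 10 nM and 1 nM did not deviate together (r = -0.757, -0.263 and -0.147). There the block moved the counts at an unadjusted p under 0.05 to 1043 higher and 1112 lower.

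The difference in ribosomal share ranged from -8.17 to -6.12 percentage points and that in mitochondrial share from -4.17 to -2.96 when a library was left out. Of 129 genes examined by name, the sign turned in 5 after the GC correction, with FOSL1 at 0.13, HES4 at 0.20, CSF3 at 0.0659, SLC7A11 at -0.0415 and CDKN1A at 0.0721. It turned in 21 after adjustment for the first principal component. There FOSL1 stood at 0.12, TGFBR2 at -0.0006, TGFB1 at 0.19, ENG at 0.0928, PGF at 0.11, PECAM1 at 0.0545, ESAM at 0.0721, CSF3 at 0.11, TNFAIP3 at -0.0067 and NFKB2 at 0.0846. ANGPTL4 stood at 0.29, MVD at 0.22, PHGDH at 0.0352, CYP1A1 at -0.0461, ABCG2 at -0.0047, ZYX at 0.21, VIM at -0.0025, KRT7 at 0.13, CDKN1A at 0.38, RRM2B at -0.14 and HNRNPH2 at -0.32. PECAM1 was 0.14 with quantile normalisation. With a library left out MT-ND4L ranged from -0.0102, without control replicate 3, to 0.175. The first principal component separates the groups, so that covariate also takes out part of the difference between them, and the cause of these turns was not tested. Of 44 list medians, 7 changed sign with quantile normalisation, 5 after the GC correction, 2 with TMM scaling and 14 with the component.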

Other observations

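Several of the genes with the largest differences at 10 nM have overlapping or near-identical partners, and those described here were chosen after their values were seen. HNRNPH2, an RNA-binding protein that shares its locus with a readthrough transcript, had 896, 2416 and 2030 normalised counts at 10 nM, against 0, 205 and 35.4 in vehicle controls. BMI1, a Polycomb protein that also shares its locus with a readthrough transcript, had 32.9, 211 and 154 at 10 nM and was listed at 0 in the 3 controls. EIF3CL, a near copy of a translation initiation factor subunit, had 4154, 332 and 702 at 10 nM, against 34242, 17898 and 10749 in controls. Reads that fit either partner cannot be told apart in a table of counts by gene, so these values are uncertain.

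FER1L6, a ferlin, had no exonic bases shared with another gene, and it had 49.4, 249 and 178 normalised counts at 10 nM, against 8.08, 2.19 and 12.1 in controls. At 1 nM replicate 1 had 133 and the other libraries 2.66 and 0. At 12 weeks FER1L6 had 15.6, 121 and 206 at 10 nM, against 1.11, 13.0 and 35.0 in controls.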
